A study of Mus musculus with 4 samples.

Results

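Genes that carry a cell through mitosis were followed in RNA of CD11b+ cell isolates of the mouse spleen after repeated social threat. The set held 60 genes chosen by name for their part in chromosome condensation, kinetochore assembly, spindle building and cell division. They were chosen with earlier results of these data known. Of them, 59 were measured among 18193 genes in all. Where a gene had several probe sets annotated with its symbol alone, the brightest of them on average stood for it. The cyclin B1 gene Ccnb1 had no probe set of that kind and was not analysed here.

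Total RNA of isolated CD11b+ splenocytes was hybridised to Affymetrix MOE430 2.0 arrays, with 2 pools of control mice (labelled as a low-threat environment) and 2 pools of mice under repeated social threat (labelled high threat). Each pool combined RNA of 5 mice and was read on 1 array, so a value is an average over mice and the spread between mice is not seen. Strain, sex, age and the length of exposure are not given in the sources used here. CD11b is the integrin alpha M chain of neutrophils, monocytes, macrophages and some lymphoid cells. Its gene Itgam was bright in all pools, at 10.47 and 11.01 in controls and 11.64 and 11.59 under threat, a rise of 0.88 (SE 0.13, limma adjusted p = 0.0015) with control pools that stood apart. Levels are RMA values on the log2 scale, where 1 unit is a 2-fold difference, and the median probe set of an array lay between 4.41 and 4.43. In these bulk pools, a change in the number of cells of a type and a change in RNA per cell cannot be told apart. The purity of the isolates was not measured here, and markers of B and T cells were read in both groups. Ms4a1 had means of 10.17 in controls and 9.19 under threat, and Cd3d of 8.53 and 7.56. Which cells in the isolates carried the mitosis transcripts cannot be told.

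Cells entering mitosis switch on a shared programme of genes. Cyclins A and B activate the kinase CDK1, condensins compact the chromosomes, kinetochores form on centromeres that carry the histone variant CENP-A, and motor proteins build the spindle. A checkpoint holds the cell until every chromosome is attached. The ligase called the anaphase promoting complex then destroys cyclin B and securin, the sister chromatids part, and the cell divides. In adult animals such transcripts are abundant in tissues with dividing precursors, and the mouse spleen can support the growth of red cell and granulocyte precursors as well as of lymphocytes.

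Many promoters of this programme share 2 short motifs, the cell cycle genes homology region (CHR, TTTGAA), which is bound by the DREAM and MuvB complexes, and the CCAAT box bound by NF-Y. Promoter windows of 300 bases, from 250 before to 50 after the start site, were available from RefSeq on GRCm38.p6 for 51 measured members, 4 of which had several windows, making 56 in all. Both strands were searched, and a base could count toward both motifs. TTTGAA was present in 36 of the 56 windows (64.3%), against 17.9% of all 32851 promoter windows and 13.4% of the 18109 windows of genes with a probe set of their own. CCAAT was present in 43 windows (76.8%), against 37.4% of all windows and 37.4% of those of genes with a probe set, and 26 windows (46.4%) held at least 2 copies, against 11.7% and 12.8%. Both motifs stood together in 32 windows (57.1%), against 6.95% of all windows and 5.23% of those of genes with a probe set. TTTAAA, a weaker form of the CHR, was found in 9 windows (16.1%, against 13.2% of all and 10.4% of those of genes with a probe set). TTTNGCGC, an E2F motif with any base at N, was found in 3 (5.4%, against 1.38% of all and 1.98% of those of genes with a probe set). These matches describe letters in a window and are not evidence of binding.

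The stretches from 180 bases before to 20 bases after the start site are given below for 9 members, because they span the responses described in the following paragraphs. Cdkn3, Hmmr, Ccnb2, Ube2c, Mki67 and Cdk1 all rose by more than 4-fold and hold both motifs. Nuf2 rose by 5.66-fold and holds neither. Birc5 and Nusap1, not shown, also rose by more than 4-fold and hold neither, though Birc5 holds 1 copy of TTTAAA. Kif23 was not called and holds both, and Pttg1 fell and holds neither. Capitals mark TTTGAA and CCAAT on either strand, so that TTCAAA and ATTGG are matches on the opposite strand.
Cdkn3, chr14:46760361-46760560, plus strand: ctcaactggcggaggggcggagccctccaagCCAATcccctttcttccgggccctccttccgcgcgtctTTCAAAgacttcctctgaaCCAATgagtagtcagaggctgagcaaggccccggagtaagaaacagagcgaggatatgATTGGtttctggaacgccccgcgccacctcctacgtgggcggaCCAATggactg
Hmmr, chr11:40733418-40733617, minus strand: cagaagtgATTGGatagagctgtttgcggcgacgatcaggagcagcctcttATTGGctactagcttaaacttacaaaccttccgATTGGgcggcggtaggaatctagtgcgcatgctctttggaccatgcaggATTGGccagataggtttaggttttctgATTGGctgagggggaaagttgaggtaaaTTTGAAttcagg
Ccnb2, chr9:70421535-70421734, minus strand: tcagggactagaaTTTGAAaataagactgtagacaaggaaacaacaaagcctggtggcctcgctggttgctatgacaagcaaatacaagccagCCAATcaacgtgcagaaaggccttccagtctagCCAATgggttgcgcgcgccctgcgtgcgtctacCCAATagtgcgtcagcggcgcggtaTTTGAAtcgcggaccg
Ube2c, chr2:164769749-164769948, plus strand: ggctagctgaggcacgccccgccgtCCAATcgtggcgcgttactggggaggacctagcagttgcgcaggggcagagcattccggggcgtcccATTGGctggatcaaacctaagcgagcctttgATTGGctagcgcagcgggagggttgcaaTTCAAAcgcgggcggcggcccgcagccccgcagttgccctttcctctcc
Mki67, chr7:135716360-135716559, minus strand: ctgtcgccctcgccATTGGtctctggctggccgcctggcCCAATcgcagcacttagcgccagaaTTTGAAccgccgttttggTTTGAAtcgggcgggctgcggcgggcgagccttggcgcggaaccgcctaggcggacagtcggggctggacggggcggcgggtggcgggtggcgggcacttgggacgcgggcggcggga
Cdk1, chr10:69352893-69353092, minus strand: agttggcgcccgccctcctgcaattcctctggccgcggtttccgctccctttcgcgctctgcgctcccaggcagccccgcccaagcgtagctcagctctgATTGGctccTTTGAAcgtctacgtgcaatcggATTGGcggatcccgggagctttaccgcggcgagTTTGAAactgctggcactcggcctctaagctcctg
Nuf2, chr1:169531445-169531644, minus strand: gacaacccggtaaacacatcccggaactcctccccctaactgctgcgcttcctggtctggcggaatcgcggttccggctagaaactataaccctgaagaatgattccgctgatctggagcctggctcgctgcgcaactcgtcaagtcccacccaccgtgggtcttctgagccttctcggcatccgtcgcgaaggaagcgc
Kif23, chr9:61946780-61946979, minus strand: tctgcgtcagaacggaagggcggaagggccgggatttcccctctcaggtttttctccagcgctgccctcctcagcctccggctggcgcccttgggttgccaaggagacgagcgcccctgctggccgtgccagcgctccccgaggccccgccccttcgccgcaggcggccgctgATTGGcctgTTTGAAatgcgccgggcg
Pttg1, chr11:43425962-43426161, minus strand: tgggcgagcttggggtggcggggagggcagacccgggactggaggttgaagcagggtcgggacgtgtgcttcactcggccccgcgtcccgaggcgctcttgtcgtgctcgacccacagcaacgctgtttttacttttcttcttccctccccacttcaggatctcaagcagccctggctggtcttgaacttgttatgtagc

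Within the set, members with and without TTTGAA overlapped widely in their change, and the difference between them was not tested. The 33 members with TTTGAA in a window had a median log2 fold change of 1.86 (from 0.04 to 2.96), and 32 of them were called higher. The 18 members without it had a median of 1.63 (from -0.25 to 2.50), and 17 were called higher. The 9 members with neither TTTGAA nor CCAAT in a window were Birc5, Cenpp, Mad2l1, Melk, Ncaph, Nuf2, Nusap1, Plk4 and Pttg1, and 8 of them rose. Among the members without TTTGAA, Birc5, Cenpe and Plk4 hold 1 copy each of the weaker form TTTAAA.

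Nearly the whole set was higher under social threat. Of 59 measured members, 57 rose (96.6%), 1 fell and 1 was not called, at an adjusted p under 0.05 in limma. Over all 18193 genes read by the same rule, 9.4% rose and 11.7% fell. The members were chosen with earlier results of these data known, so the contrast with all genes describes this set and is not a test of it. The members had a median log2 fold change of 1.79, whereas the median of all genes was -0.02. At least a 2-fold rise was seen for 47 members (79.7%) and 1.83% of all genes, and at least a 4-fold rise for 19 members out of 67 genes in all. Ranked by the size of the rise among all genes, 27 members stood among the first 100 and 50 among the first 500.

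The groups lay far apart beside the spread of the pools within them. In 57 members both threat pools lay above both control pools, as they did for 26.1% of all genes. The gap between the 2 control pools had a median of 0.13 over the members and that between the threat pools a median of 0.07. The widest gaps were 0.54 between control pools, for Cdkn3, and 0.34 between threat pools, for Plk1. Control pool 1 was above control pool 2 for 41 of 59 members, and for 56.5% of all genes. Threat pool 1 was above threat pool 2 for 39 members, and for 50.9% of all genes.

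**Figure D1:**
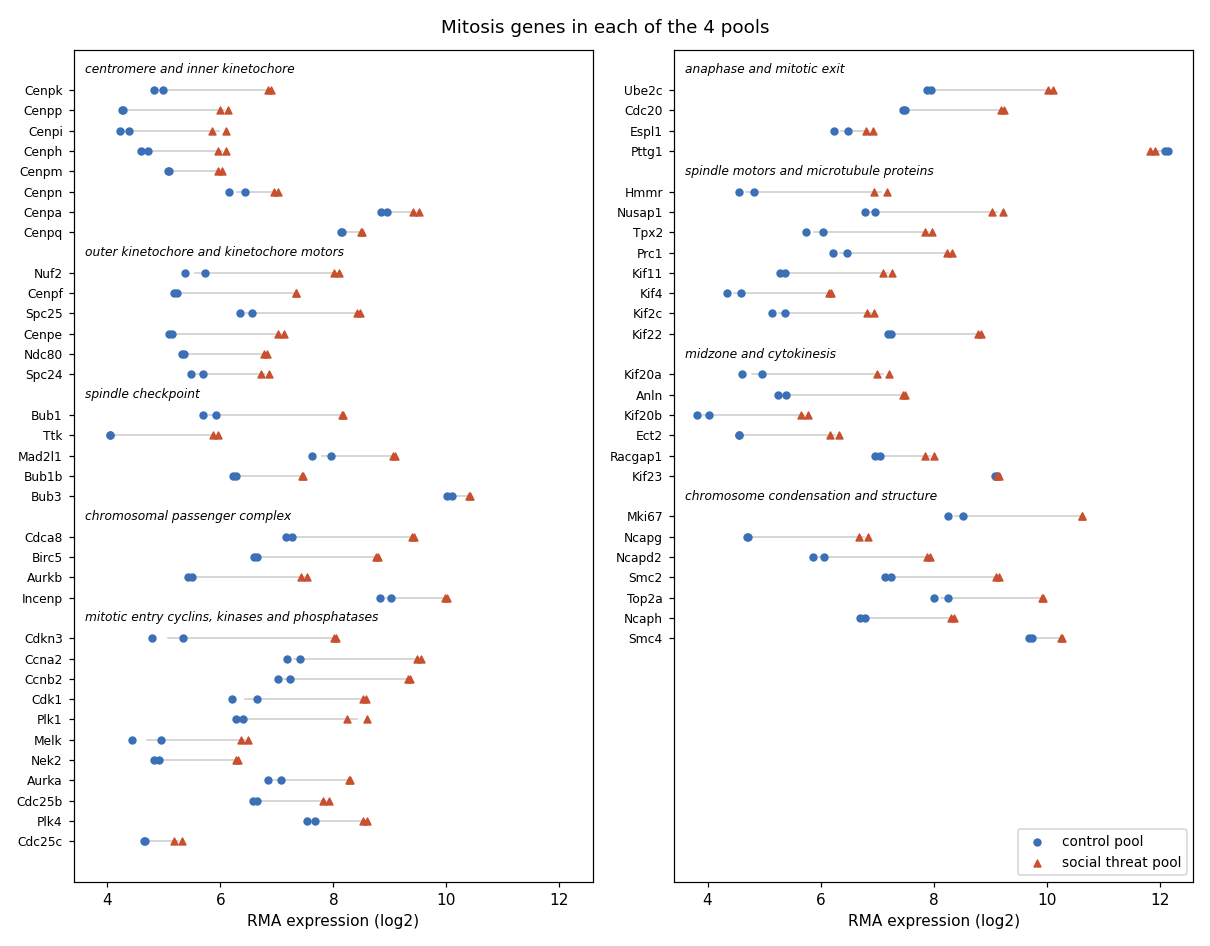
RMA expression (log2, horizontal axis) of each of the 59 measured members, grouped by role and ordered by the size of the change, with blue circles for the 2 control pools, red triangles for the 2 social threat pools and a grey line between the group means. Threat pools lie to the right of control pools in 57 rows, to the left for Pttg1, and on top of them for Kif23.

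The cyclin-dependent kinase that drives mitotic entry rose together with its partners. Cdk1, the kinase itself, stood at 6.65 and 6.21 in the control pools and at 8.57 and 8.53 under threat. Its groups did not overlap, and it rose by 2.12 (SE 0.13, limma adjusted p = 6.66e-06). Ccna2, cyclin A2, stood at 7.18 and 7.41 in controls and 9.55 and 9.47 under threat, a rise of 2.22 (SE 0.09). Ccnb2, cyclin B2, went from 7.24 and 7.03 to 9.35 and 9.32, a rise of 2.20 (SE 0.09). These fold changes lie between 4.33-fold and 4.65-fold, and differences among the 3 genes were not tested.

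Cdkn3, a phosphatase that removes an activating phosphate from CDK1 and CDK2, had the largest rise of the set. It stood at 5.33 and 4.79 in the control pools and at 8.05 and 8.0 under threat. The threat pools were close together and the control pools were not, and the rise was 2.96 (SE 0.16, a 7.80-fold difference, adjusted p = 2.58e-06 in limma). Plk1, polo-like kinase 1, stood at 6.27 and 6.40 in controls and at 8.59 and 8.25 under threat, and rose by 2.08 (SE 0.12). All 11 measured genes of mitotic entry rose, with a median of 1.74. Smaller rises were found for the CDK-activating phosphatase genes Cdc25b (1.25, SE 0.09) and Cdc25c (0.60, SE 0.12, not called without threat pool 1 or 2, at adjusted p = 0.125 and 0.0532), for the centriole kinase gene Plk4 (0.96, SE 0.08) and for the centrosome kinase genes Aurka (1.34, SE 0.10) and Nek2 (1.42, SE 0.11). Melk, a kinase of proliferating progenitors, rose by 1.74 (SE 0.16) from control pools that stood apart, at 4.94 and 4.44.

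Kinetochore genes rose in both the inner and the outer layer, with a lower median in the inner layer, and that difference was not tested. The 8 genes of the centromere and inner kinetochore all rose, with a median of 1.14, and 4 of them rose by at least 2-fold. Cenpa, the centromeric histone H3 variant, stood at 8.94 and 8.85 in controls and at 9.51 and 9.41 under threat. Its groups did not overlap, but the rise was 0.57 (SE 0.07, limma adjusted p = 0.000333), and its other 2 probe sets were not called. Cenpq, a subunit of the constitutive centromere network, went from 8.13 and 8.16 to 8.51 and 8.48 and rose by 0.36 (SE 0.07). That call was lost without threat pool 1 (adjusted p = 0.143) or threat pool 2 (0.109). Other subunits of that network rose more, among them Cenpk by 1.96 (SE 0.11), Cenpp by 1.80 (SE 0.12), Cenpi by 1.67 (SE 0.14) and Cenph by 1.37 (SE 0.12). Cenpm rose by 0.91 (SE 0.11) and Cenpn by 0.69 (SE 0.12), the latter with no call without threat pool 2 (adjusted p = 0.0647).

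Outer kinetochore genes all rose by at least 2-fold, with a median of 1.97 over 6 genes. The NDC80 complex, which grips the spindle microtubules, is made of the products of Ndc80, Nuf2, Spc24 and Spc25. Nuf2 stood at 5.73 and 5.38 in controls and at 8.01 and 8.10 under threat, a rise of 2.50 (SE 0.13, adjusted p = 1.7e-06 in limma). Spc25 rose by 1.99 (SE 0.10), Ndc80 by 1.46 (SE 0.10) and Spc24 by 1.20 (SE 0.12). Subunits of this 1 complex thus differed in their fold changes, from 2.30-fold to 5.66-fold, and whether they differed from each other was not tested. Cenpf, a large kinetochore protein of late G2 and mitosis, stood at 5.23 and 5.19 in controls and 7.34 and 7.35 under threat, a rise of 2.13 (SE 0.10). Cenpe, the motor that moves chromosomes to the spindle equator, rose by 1.96 (SE 0.11).

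All 5 spindle checkpoint genes rose, with a median of 1.28 and a range from 0.36 to 2.36. Bub1, a kinase of the checkpoint, stood at 5.92 and 5.69 in controls and 8.17 and 8.15 under threat, a rise of 2.36 (SE 0.10, adjusted p = 8.66e-07 in limma). Ttk, the kinase MPS1 that starts checkpoint signalling, rose by 1.86 (SE 0.12) from 4.05 and 4.04, levels under the array median. Mad2l1, whose product MAD2 inhibits CDC20, rose by 1.28 (SE 0.10), and Bub1b, which encodes BUBR1, by 1.20 (SE 0.09). Bub3, which binds both BUB1 and BUBR1, was bright throughout, at 10.01 and 10.09 in controls and at 10.42 and 10.40 under threat. It rose by 0.36 (SE 0.05, adjusted p = 0.000951 in limma), and its other 4 probe sets were not called.

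The chromosomal passenger complex, which corrects faulty attachments and later marks the division plane, was higher in all 4 subunits. Its kinase gene Aurkb stood at 5.42 and 5.49 in controls and at 7.53 and 7.43 under threat, a rise of 2.02 (SE 0.10). Birc5, survivin, went from 6.60 and 6.65 to 8.79 and 8.76 (log2 fold change 2.15, SE 0.08). Cdca8, borealin, went from 7.17 and 7.27 to 9.38 and 9.42 (2.19, SE 0.07). These 3 subunits rose by 4.06-fold to 4.55-fold, and the scaffold gene Incenp by 2.09-fold (log2 1.07, SE 0.07), from 9.02 and 8.83 to 10.01 and 9.97.

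**Figure D2:**
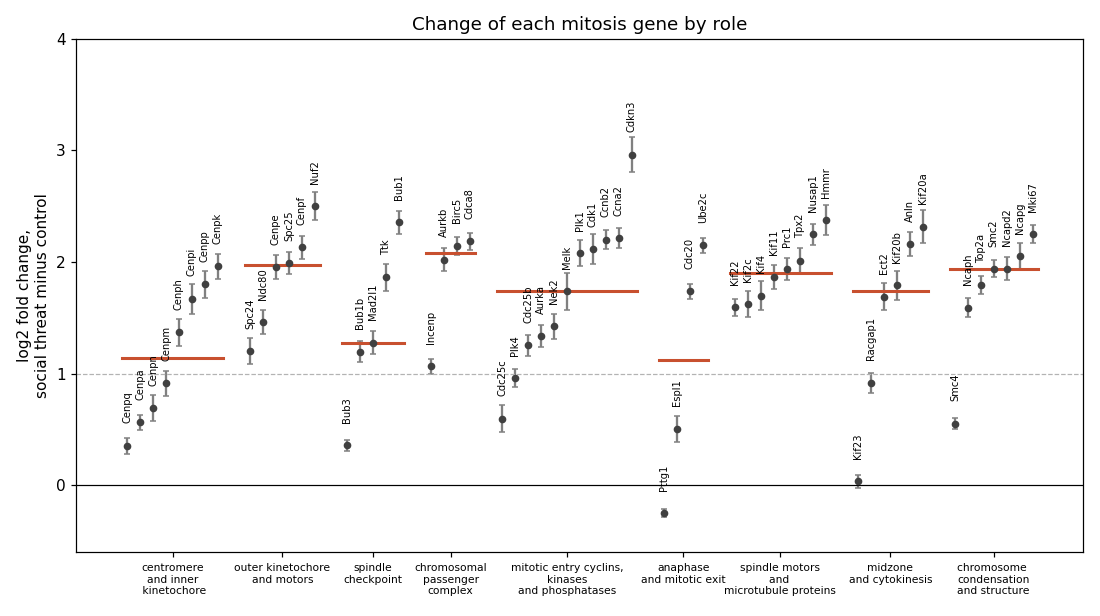
Log2 fold change (social threat minus control, vertical axis) of each member with its SE from limma, grouped by role along the horizontal axis, with a red bar at the median of each role and a dashed line at a 2-fold rise. Roles with medians near 2 are the outer kinetochore, the passenger complex, the spindle proteins and chromosome condensation, while Pttg1 lies below 0 and Kif23 at 0.04.

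Of 4 genes of anaphase onset, 3 rose and 1 fell. Ube2c, the ubiquitin-conjugating enzyme that serves the anaphase promoting complex, stood at 7.96 and 7.89 in controls and at 10.12 and 10.03 under threat, a rise of 2.15 (SE 0.07, limma adjusted p = 1.09e-07). Cdc20, which brings substrates to that ligase, stood at 7.47 and 7.49 in controls and 9.24 and 9.19 under threat, a rise of 1.74 (SE 0.07). Espl1, the protease separase that opens the cohesin ring, rose by 0.51 (SE 0.11, adjusted p = 0.0144 in limma), and it had the largest adjusted p of the members that rose. Its call was lost without threat pool 1 (adjusted p = 0.0902) or threat pool 2 (0.197).

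Pttg1, which encodes securin, the inhibitor of separase, was the member that fell. It was the brightest member in every pool, at 12.14 and 12.10 in controls and at 11.92 and 11.83 under threat. Both threat pools lay below both control pools, and the fall was small (log2 fold change -0.25, SE 0.04, limma adjusted p = 0.00157). A further Pttg1 probe set fell by the same amount (-0.25, SE 0.05, adjusted p = 0.00706), and the dimmest stood 0.37 lower with no call (adjusted p = 0.0532). Without the variance trend in limma the fall was not called (adjusted p = 0.13).

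Spindle motors and microtubule-binding proteins rose for all 8 measured genes, each by at least 3-fold, with a median of 1.90. Hmmr, a spindle assembly protein, stood at 4.82 and 4.55 in controls and at 7.18 and 6.95 under threat, a rise of 2.38 (SE 0.13). Nusap1, which bundles microtubules near chromosomes, went from 6.97 and 6.79 to 9.22 and 9.04 (2.25, SE 0.10). Tpx2, which activates Aurora A on the spindle, rose by 2.01 (SE 0.12), and Prc1, which crosslinks midzone microtubules, by 1.94 (SE 0.10). The motor genes lay close together, with Kif11, whose product pushes the spindle poles apart, at 1.86 (SE 0.11), Kif4 at 1.70 (SE 0.13), Kif2c at 1.62 (SE 0.12) and Kif22 at 1.60 (SE 0.08).

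Among 6 cytokinesis genes, 5 rose. Kif20a, a motor of the central spindle, stood at 4.60 and 4.97 in controls and at 7.21 and 7.0 under threat, a rise of 2.32 (SE 0.14). Anln, the contractile ring protein anillin, went from 5.39 and 5.25 to 7.46 and 7.50 (2.16, SE 0.10). Ect2, which activates RhoA at the division plane, rose by 1.69 (SE 0.12), its partner Racgap1 by 0.92 (SE 0.09) and Kif20b by 1.79 (SE 0.13). Kif23, the motor that forms the centralspindlin complex with RACGAP1, was not called. It stood at 9.13 and 9.08 in controls and at 9.16 and 9.12 under threat, with overlapping groups (log2 fold change 0.04, SE 0.06, limma adjusted p = 0.78). None of its 3 probe sets was called, and the middle one stood 0.23 higher (SE 0.10, limma adjusted p = 0.167, unadjusted p = 0.0413).

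All 7 genes of chromosome condensation and structure rose, with a median of 1.94. Mki67, the proliferation antigen Ki-67 that coats mitotic chromosomes, stood at 8.51 and 8.25 in controls and at 10.63 in both threat pools, a rise of 2.25 (SE 0.08). Top2a, the topoisomerase that untangles sister chromatids, went from 8.25 and 8.02 to 9.94 and 9.92 (1.80, SE 0.08). Condensin I subunits rose by 2.05 for Ncapg (SE 0.12), 1.94 for Ncapd2 (SE 0.10) and 1.59 for Ncaph (SE 0.08). Smc2 and Smc4 form the ATPase core shared by condensin I and II. Smc2 rose by 1.94 (SE 0.08), from 7.26 and 7.14 to 9.16 and 9.11, and Smc4 by 0.55 (SE 0.05), from 9.75 and 9.69 to 10.28 and 10.26. The other 2 Smc4 probe sets also rose, by 0.92 and 0.66.

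Among the 59 members, 38 had several probe sets, 111 in all. Apart from the brightest probe set of each, which gave the values above, these members had 73 others, of which 41 were called higher, 1 lower (of Pttg1) and 31 were not called. Over all genes, 6.88% of the probe sets other than the brightest were called higher. Of the 31 not called, 25 had a mean below the median of all probe sets. At least 2 probe sets rose for 29 of the 38 members, and no member had probe sets called in both directions. Averaging all probe sets of a gene kept 55 members called higher but lowered the median log2 fold change to 1.28. In that setting Cenpa (adjusted p = 0.0746) and Bub3 (adjusted p = 0.15) were no longer called in limma.

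**Figure D3:**
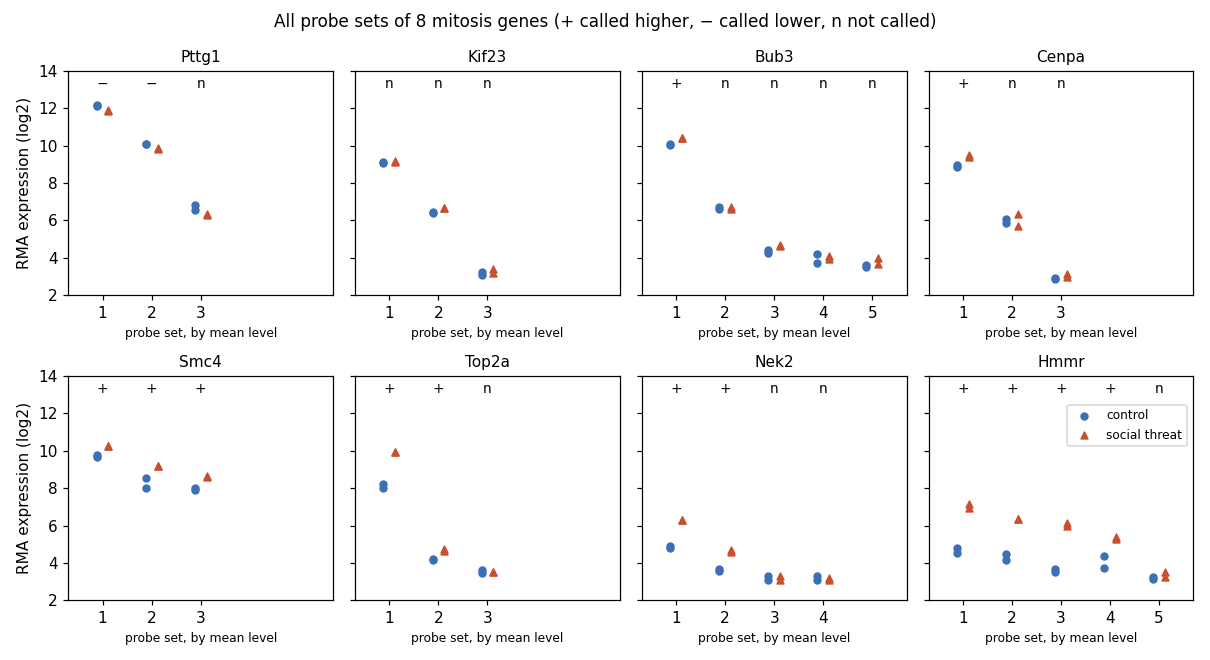
RMA expression (log2, vertical axis) of every probe set of 8 members, ordered within a gene from bright to dim, with blue circles for control pools and red triangles for threat pools, and with +, − or n above each for called higher, called lower or not called in limma. Pttg1 is lower under threat in all 3 probe sets, Kif23 is not called in any, and Bub3 and Cenpa are called only in the brightest, whereas Hmmr is called in 4 of 5.

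Several rises start from dim control values. RMA gives no detection call, and control means lay below the lowest array median for 4 members and below 5 for 14. Under threat, 0 members had a mean below 5. The rises of Ttk, Kif20b, Cenpi and Cenpp start from such levels under the median.

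Genes of the same processes outside the set were also examined. Of 25 further kinetochore and centromere genes, 17 rose and 0 fell, with a median of 0.76. The largest rise was that of Ska1, part of the complex that tracks microtubule ends (2.39, SE 0.12), followed by Sgo2a, a protector of centromeric cohesion (1.71, SE 0.12), and Kntc1, a checkpoint protein (1.62, SE 0.15). Of 27 further spindle and cytokinesis genes, 17 rose and 2 fell, with a median of 0.43. Depdc1b rose by 2.50 (SE 0.13), Dlgap5, a spindle assembly protein, by 2.12 (SE 0.13) and Spag5, astrin, by 2.11 (SE 0.13). The 2 that fell were Haus8, an augmin subunit (-0.41, SE 0.08), and Clasp2, a microtubule plus-end protein (-0.39, SE 0.09). Of 22 further mitotic regulators, 15 rose and 0 fell, with a median of 0.97. Cdca3 rose by 2.14 (SE 0.08), Pbk, a mitotic kinase, by 1.97 (SE 0.10) and Cdca5, sororin, by 1.96 (SE 0.12).

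Further lists covered the anaphase promoting complex, cohesin with condensin II, and centrioles. Of 16 anaphase promoting complex subunits and partners, 2 rose and 0 fell, with a median of 0.10, beside 9.4% of all genes called higher. Those were Anapc15 (0.45, SE 0.10) and Anapc5 (0.31, SE 0.04). Of 15 cohesin and condensin II genes, 8 rose, with a median of 0.20. Esco2, the cohesin acetyltransferase of S phase, rose by 2.25 (SE 0.14), while the condensin II genes Ncapd3 and Ncapg2 rose by 0.90 (SE 0.09) and 0.84 (SE 0.07). Of 18 centriole and gamma-tubulin genes, 7 rose, with a median of 0.18. Stil, which builds new centrioles, rose by 1.99 (SE 0.11), Cenpj by 1.16 (SE 0.19) and Cep72 by 0.77 (SE 0.11).

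Genes of other phases of the cell cycle were read as well. Of 46 genes of DNA replication and nucleotide supply, 35 rose and 0 fell, with a median of 0.70, led by Rrm2, a ribonucleotide reductase subunit (2.35, SE 0.06), Cdc6, a licensing factor (2.13, SE 0.13), and Clspn, claspin (1.83, SE 0.19). Of 25 genes of G1 cyclins, CDK4/6, CDK inhibitors and E2F factors, 10 rose and 3 fell, with a median of 0.29. Ccne2, cyclin E2, rose by 2.49 (SE 0.16), and the E2F factors E2f7 and E2f8, repressors that act late in the cycle, rose by 2.36 (SE 0.14) and 1.82 (SE 0.09). The D-type cyclins, which answer to growth signals, moved in both directions: Ccnd1 and Ccnd2 fell by 1.28 (SE 0.06) and 0.74 (SE 0.07), and Ccnd3 rose by 0.97 (SE 0.05). Among CDK inhibitors, Cdkn1a, p21, fell by 0.64 (SE 0.06), while Cdkn2c, p18, and Cdkn2d, p19, rose by 1.12 (SE 0.08) and 0.43 (SE 0.05). Cdkn1b, Cdkn1c, Cdkn2a and Cdkn2b were not called. Ccnd3, Cdkn2c and Cdkn2d were added after their values were seen. The medians of these lists lie below the 1.79 of the mitosis genes, and that difference was not tested. Members and lists were chosen with earlier results of these data known, so the gap cannot be separated from the choice of genes.

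Markers of cell types shifted in the same pools. All 11 measured genes of neutrophil precursor granules rose, with a median of 2.18, and their summed level on the linear scale went from 33468 to 34351 in control pools to 68327 to 68365 under threat. The largest rises were those of primary granule and early precursor genes, named after their values were seen: Mpo went from 6.10 ± 0.18 (SD, n = 2) to 10.95 ± 0.09 (28.9-fold), Ctsg rose by 28.1-fold, Elane by 19.8-fold, Ms4a3 by 15.5-fold and Prtn3 by 11.9-fold. The sum is dominated by brighter genes that rose less. The brightest 3 were Ngp at 13.41 ± 0.02 (SD, n = 2) in controls and 13.95 ± 0.01 under threat, Lcn2 at 12.81 ± 0.06 and 13.56 ± 0.0035, and Camp at 12.78 ± 0.01 and 13.47 ± 0.02. Erythroid markers rose for 10 of 15 and fell for 0, with a median of 1.02 and a summed level of 1097 to 1179 in controls and 2234 to 2324 under threat. Among the brightest of them, Car2 rose from 7.24 ± 0.05 to 9.17 ± 0.09 and Alas2 from 7.38 ± 0.04 to 8.23 ± 0.08, while the transferrin receptor gene Tfrc, which dividing cells also use, stood at 8.99 ± 0.17 and 8.93 ± 0.04 and was not called. The largest erythroid rises, named after their values were seen, were those of Slc4a1 (9.11-fold), Hemgn (6.93-fold), Rhag (4.67-fold) and Car1 (4.52-fold). The last 3 of these had control means under the array median. In all, 5 erythroid genes were not called, among them Gata1 and Epor. Megakaryocyte and platelet markers rose for 5 of 9, with a median of 0.39 and a summed level of 707 to 751 in controls and 1166 to 1171 under threat. Ppbp and Pf4, chemokines of platelets, rose by 1.00 and 0.89, and Itgb3 stood at 6.81 ± 0.09 and 6.98 ± 0.08 with no call. Mature neutrophil markers rose for 7 of 10 and fell for 3, with a median of 0.35 and summed levels of 61799 to 61932 and 73170 to 73194. Their brightest genes were S100a9 and S100a8, which rose by 0.16 and 0.24, and Il1r2, which fell by 0.20.

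Lymphoid and dendritic cell markers went the other way. B cell markers fell for 9 of 10 (median -1.05), T cell markers for 11 of 11 (-0.96), NK cell markers for 7 of 10 (-0.60) and conventional dendritic cell markers for 10 of 11 (-0.89). The summed level of the B cell list went from 4595 to 4696 in controls to 2184 to 2279 under threat, and that of the T cell list from 1595 to 1673 to 825 to 838. The brightest B cell genes Ms4a1, Cd79a and Cd22 fell by 0.98, 1.11 and 0.81, and the T cell genes Cd3d, Cd4 and Lat by 0.96, 0.74 and 1.00. Summed NK cell levels were 2344 to 2531 in controls and 1338 to 1389 under threat. Gzma, Klrd1 and Klrk1 had log2 fold changes of -0.71, -1.28 and -1.34. Summed dendritic cell levels were 16620 to 16626 and 9367 to 9493. There H2-Ab1 and Itgax fell by 0.88 and 0.89, and Sirpa was not called (-0.05). The dendritic cell list shares Cd8a with the T cell list and Flt3 with the stem and progenitor list, so these genes count in both. Of 11 germinal centre and plasma cell genes, 3 fell and 0 rose, with summed levels of 7035 to 7111 and 6805 to 6878, and their brightest genes Xbp1 (0.09), Jchain (-0.03) and Bcl6 (0.17) were not called.

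The remaining lists were mixed. Of 10 stem and progenitor genes, 2 rose and 4 fell, with summed levels of 1001 to 1050 in controls and 872 to 900 under threat. Myb, a transcription factor of dividing precursors, rose from 7.51 ± 0.02 to 8.56 ± 0.03, whereas the receptor genes Flt3 and Kit fell by 1.12 and 0.72. Flt3 was also counted in the conventional dendritic cell list. Red pulp macrophage markers fell for 10 of 13 and rose for 1, with summed levels of 17643 to 17987 and 13460 to 13525. Vcam1 and C1qb fell by 0.42 and 0.53, and the iron exporter gene Slc40a1 was not called (-0.07). Classical monocyte markers rose for 2 of 8 and fell for 3, with summed levels of 26447 to 27176 and 28167 to 28306, where Chil3 and F13a1 rose by 0.59 and 0.22 and Csf1r fell by 0.26. RMA has no detection call, so no marker can be given as absent. The part of these shifts in the rise of the mitosis genes was not tested.

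**Figure D4:**
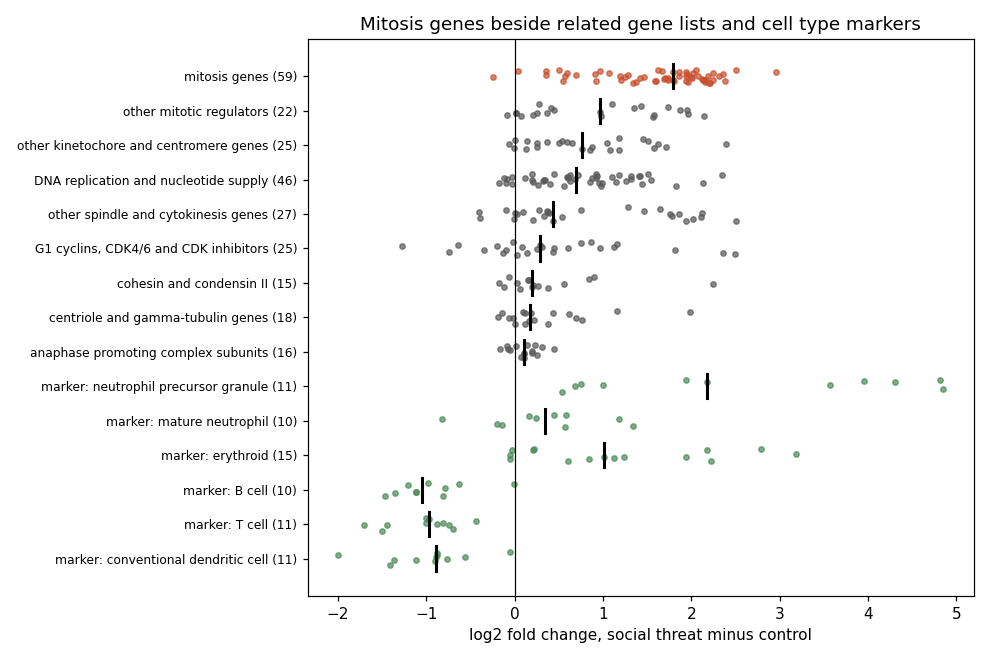
Log2 fold change (social threat minus control, horizontal axis) of single genes, 1 row per list shown, with the number of measured genes in brackets and a black bar at the median. Marker lists of NK cells, germinal centre and plasma cells, stem and progenitor cells, megakaryocytes and platelets, red pulp macrophages and classical monocytes are not drawn. Mitosis genes (red) have a median of 1.79, related cell cycle lists (grey) lie between 0.10 and 0.97, and the markers shown (green) range from a median of 2.18 for neutrophil precursor granules to -1.05 for B cells.

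Leaving out a pool leaves 1 array in its group, which is then assumed to vary like the other group, whose 2 pools alone give the spread, so these counts say little about stability. Without either control pool, 57 members were called higher, without threat pool 1 there were 54 and without threat pool 2 there were 53. Over all probe sets, the calls without threat pool 1 fell from 3194 higher and 3905 lower to 1575 and 1766, and without threat pool 2 to 1619 and 1552. The members that lost their call are Cenpq, Cdc25c, Espl1 and Cenpn, named above, and each had risen by less than 2-fold in its brightest probe set. With all pools, the dimmer probe set of Cenpn rose by 1.23 (SE 0.14) and that of Cdc25c by 1.07 (SE 0.13).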

How the data were processed

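CD11b+ splenocytes of control and social threat mice were profiled on 4 arrays, 1 per pool of 5 mice, and groups and pool numbers came from the sample titles. The authors deposited log2 values for each probe set, and the submitters' processing notes name RMA, with no version. They were used without further normalization. Of 45037 probe sets, 34945 had exactly 1 symbol in the platform annotation, 932 had several and 9160 were unnamed.

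Each probe set was fitted by limma 3.58.1 under R 4.3.3 (lmFit, then eBayes with a mean-variance trend, at 2 residual and 7.14 prior degrees of freedom). The two-sided p-values had Benjamini-Hochberg adjustment over all 45037 probe sets, and calls needed an adjusted p under 0.05. The labels name no batch of handling or hybridisation, and an effect of one shared by the pools of a group cannot be told apart from threat. The SE and p-values measure only the spread between pools and not that between mice. That spread is drawn more from all probe sets than from the gene's own pools, at 7.14 prior against 2 residual degrees of freedom. With so few arrays the precision is limited by their number. The summed level of a list adds 2 to the power of each log2 value. Members, gene lists and the naming rule (the 4 largest changes in each role, all members not called or lower, the 3 largest calls of each related list and any call the other way, the 3 brightest genes of each marker list, and Cdk1, Ccnb1, Mki67, Top2a, Bub3, Plk1 and Aurkb; further members are given to account for all) were chosen with earlier results of these data known. The code was tested on simulated data. For the limma fit the simulated spreads were shuffled over probe sets, so its mean-variance trend was not tested. Promoter motifs were searched in Python 3.11.15. Alternatives were the variance trend, a pool number block, a filter on dim probe sets, other probe set rules, centring, and each pool left out.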

Additional observations from a re-analysis of the deposited data

How the results depend on the processing

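The rise of the mitosis genes kept its direction in every alternative run, but most of these runs could not have changed it. Dropping the variance trend, the replicate block and the filter on dim probe sets leave each fold change as it is (median log2 1.79 in each). Centring moves the arrays little, as their medians lay between 4.41 and 4.43. Leaving out 1 pool cannot reverse the 57 members whose threat pools both lay above both control pools. When 1 pool was left out, its lone partner was assumed to vary like the other group, whose 2 pools alone gave the spread, so these calls say little about stability. In those fits 53 to 57 of 59 members were called higher and 1 lower, with a median log2 fold change of 1.78 to 1.82. With the pool number as a replicate block, 57 members were higher and 1 lower, and 3616 and 4552 of all probe sets were called. The numbers mark no shared origin in the labels, and same-numbered pools deviated together only weakly (r = 0.05 over probe sets, 2 pairs). Without the variance trend 57 members were higher and 0 lower, since Pttg1 lost its call, and 2533 of all probe sets were called lower in place of 3905. The median dropped to 1.28 as the mean of all probe sets of a gene. Over all probe sets, leaving out 1 pool gave 1575 to 3782 calls higher and 1552 to 4939 lower. The filter on dim probe sets, centring and the probe set with the smallest p left 57 members higher and 1 lower. The 2 pools per group and dim control levels limit precision. For the other changes in counts over all probe sets the cause was not tested.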
